A study of Mus musculus with 6 samples.

Results

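The immediate early genes examined here were Fos, Fosb, Jun, Junb, Jund, Egr1, Ier2, Dusp1, Zfp36 and Nr4a1. They were taken by symbol from the gene list of the deposited matrices, where each symbol matched 1 of 32285 genes, so that the set holds 10 genes. All 10 had counts in each library and all 10 passed the filter on low counts over all cells.

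Immediate early genes are transcribed within minutes of a signal, from promoters that do not wait for new protein synthesis. Growth factors, cytokines, cell stress and tissue handling all induce them, mostly through MAP kinase and calcium signaling that acts on serum response factor, its ETS partners and CREB. In hematopoietic stem and progenitor cells (HSPCs), several members, among them Egr1 and Nr4a1, are known for their link with quiescence, and the same genes are also known to rise when tissue is dissociated into single cells.

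The libraries came from bone marrow of female C57BL/6J hosts (CD45.1), 8 to 12 weeks old and not conditioned before injection. AML recipients had been injected with 1000000 C1498 cells (CD45.2), a murine acute myeloid leukemia line, and control recipients with PBS; both were sacrificed at day 21. Host HSPCs were sorted as lineage-negative, cKit+ and Sca1+ (LSK) cells after red cell lysis and lineage depletion. Each group has 3 libraries, and the sources used here do not say how many mice were sorted for each, so that p-values measure the spread between libraries.

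The authors' table of cells keeps 16822 barcodes from 5 libraries and none from AML replicate 2, so that 3 PBS libraries were compared with 2 AML libraries. Kept cells ranged from 693 in AML replicate 1 and 934 in PBS replicate 2 to 6838 in PBS replicate 1. The median UMI count of a kept cell ranged from 2393 in AML replicate 1 to 9586 in PBS replicate 2, and a library's kept UMIs summed to between 1945659 and 32123508. AML replicate 1 stood apart in cell cycle phase, with 14.7% of its cells called G1 against 49.0% in AML replicate 3 and 55.9% to 58.2% in the PBS libraries. Any pair of libraries shared between 0 and 12 barcodes. All 4 markers of the LSK gate (Kit, Ly6a, Ptprc and Cd34) were detected in each library, with a summed level of 464 to 663 CPM. In each of 5 libraries the summed markers of a class (HSC, MPP2, MPP3 or MPP4) were highest in the cells of that name. The authors drew the classes by scores of gene signatures, so this describes the labels and does not test them.

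Values below are UMI counts scaled to a total of 1000000 (CPM), using TMM library sizes unless plain totals are named. Summed levels of the marker and heat shock lists, above and below, used plain totals. They are compared between cells for 1 gene, not between genes, since the number of UMIs also depends on where the reads of a transcript end.

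The members moved together across cell cycle phases, and 5 of the 8 that were matched to a promoter hold the same motif. Of these 5, the promoter sequences of Fos, Junb and Nr4a1 are shown. Each is the 250 bases before the RefSeq start (GRCm38.p6), read 5′ to 3′ on the gene's strand, and capitals mark TGACG or its reverse complement CGTCA, the core of the cAMP response element (CRE). The windows are chr12:85473640-85473889 (plus strand) for Fos, chr8:84978749-84978998 (minus strand) for Junb and chr15:101266596-101266845 (plus strand) for Nr4a1, and none overlaps an annotated exon.
Fos: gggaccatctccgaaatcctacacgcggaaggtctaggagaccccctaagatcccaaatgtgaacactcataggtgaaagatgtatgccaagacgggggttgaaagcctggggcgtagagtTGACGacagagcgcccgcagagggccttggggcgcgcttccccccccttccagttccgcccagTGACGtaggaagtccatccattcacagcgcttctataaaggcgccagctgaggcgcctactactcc
Junb: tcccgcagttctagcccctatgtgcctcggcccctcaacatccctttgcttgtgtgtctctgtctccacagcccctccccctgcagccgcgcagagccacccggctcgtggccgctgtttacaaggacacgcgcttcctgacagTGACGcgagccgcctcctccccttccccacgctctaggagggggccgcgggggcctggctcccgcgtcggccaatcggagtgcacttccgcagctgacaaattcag
Nr4a1: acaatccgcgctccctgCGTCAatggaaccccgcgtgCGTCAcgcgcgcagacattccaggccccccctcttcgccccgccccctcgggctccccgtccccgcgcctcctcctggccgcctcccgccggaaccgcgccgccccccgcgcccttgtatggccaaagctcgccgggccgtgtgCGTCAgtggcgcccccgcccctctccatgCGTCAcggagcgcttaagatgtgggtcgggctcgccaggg

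TGACG, searched on both strands, was found in 5 of the 8 members that were matched to a promoter (Fos, Fosb, Junb, Dusp1 and Nr4a1), against 17.8% of 32851 promoters of the same length. It is also the first part of the full CRE, TGACGTCA, which was found in 1 member (Dusp1) and in 1.55% of promoters. The AP-1 site TGANTCA was found in 0 of 8 members and in 6.75% of promoters. A CArG box, the serum response factor site, was found in 1 member (Zfp36, where the window lies within an annotated exon) and in 1.47% of promoters. TATAAA was found in Fos alone among the members, against 12.4% of promoters, and the ETS core CCGGAAG in 1 member against 6.91%. A match says only that the letters are there, and a lack of one says nothing of sites outside the 250 bases searched. The Jund window (chr8:70697489-70697738) does not adjoin the annotated Jund start at 70698949. Ier2 and Egr1 are named only.

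The AP-1 members lie on 4 chromosomes of GRCm38. Fos (ENSMUSG00000021250) is at chromosome 12, 85473890 to 85477273, plus strand. Fosb (ENSMUSG00000003545) is at chromosome 7, 19302696 to 19310051, minus strand, and Jun (ENSMUSG00000052684) at chromosome 4, 95049034 to 95052222, minus strand. Junb (ENSMUSG00000052837) and Jund (ENSMUSG00000071076) share chromosome 8, at 84974484 to 84978718 on the minus strand and at 70698949 to 70700616 on the plus strand. Of the others, Ier2 (ENSMUSG00000053560) is also on chromosome 8, at 84661331 to 84662852, minus strand. Egr1 (ENSMUSG00000038418) is at chromosome 18, 34859823 to 34864984, plus strand, and Dusp1 (ENSMUSG00000024190) at chromosome 17, 26505590 to 26562128, minus strand. Zfp36 (ENSMUSG00000044786) is at chromosome 7, 28376784 to 28380253, minus strand, and Nr4a1 (ENSMUSG00000023034) at chromosome 15, 101254269 to 101274795, plus strand. All 10 are annotated as protein coding.

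The first question was how far libraries of 1 group spread. Among the PBS libraries the members spread more than most genes: the ratio of the highest to the lowest PBS library had a median of 2.32 over the 10 members and of 1.30 over 8619 genes with a mean log2 CPM of at least 3. It ran from 1.72 for Fosb to 3.43 for Jun. A ratio as large as that of Jun was seen in 0.476% of those genes, as large as that of Junb in 0.534%, of Fos in 0.580% and of Nr4a1 in 0.673%. For Fosb the share was 7.87%, and for the other 5 members it was 1.33% to 4.55%. PBS replicate 3 was the lowest PBS library for 9 of 10 members, Fosb being the exception, and it lay below at least 1 AML library for 6.

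The comparison of AML with PBS recipients asked whether residual host HSPCs carried more or less of these transcripts in the leukemic marrow. Over all LSK cells each member had a negative fold change, but none passed the test, and PBS replicate 3 lay close to the AML libraries. Values by library are plotted on a linear scale for each member.

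**Figure D1:**
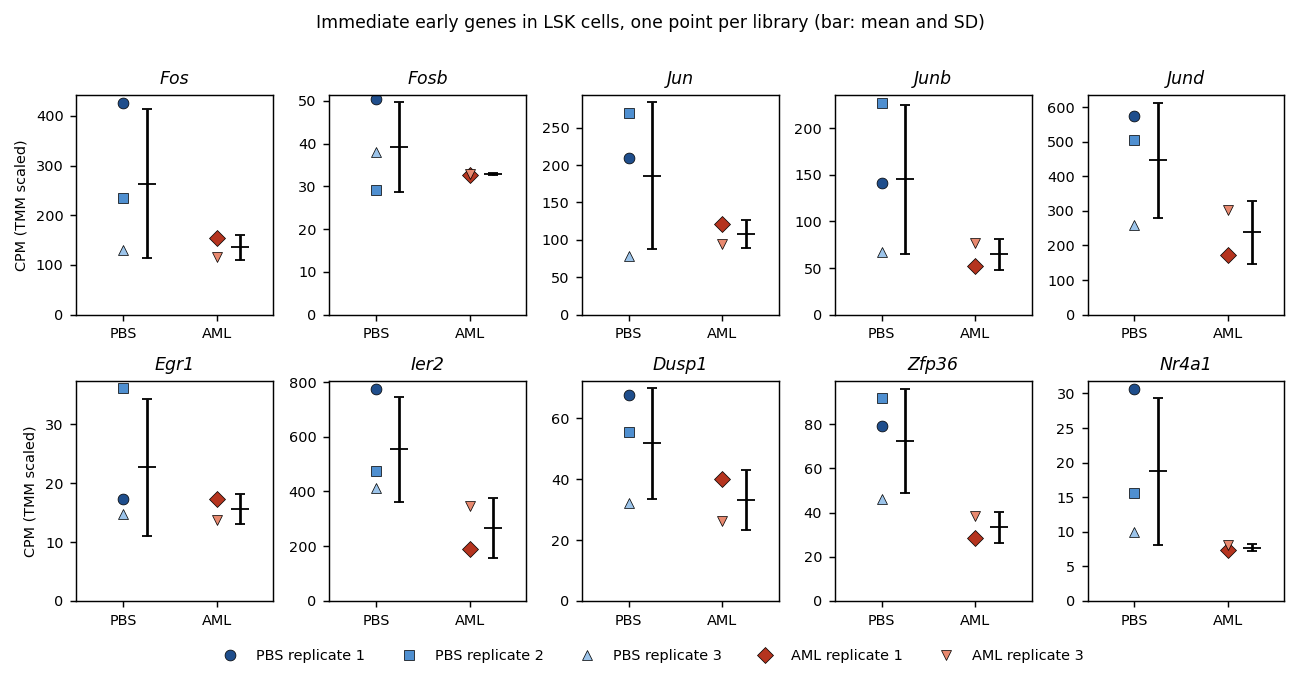
Level of each immediate early gene (CPM, TMM scaled, linear axes from 0) in the 3 PBS and 2 AML libraries over all kept LSK cells; each symbol is 1 library and the bar is the group mean with its SD. PBS replicates 1 and 2 lie above both AML libraries for 8 of 10 genes, and PBS replicate 3 lies beside the AML libraries.

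Among the AP-1 subunits, Fos (c-Fos, which dimerizes with Jun proteins) stood at 427, 234 and 130 CPM in PBS replicates 1 to 3 and at 154 and 117 CPM in AML replicates 1 and 3. Jun (c-Jun) stood at 210, 270 and 78.7 CPM against 121 and 94.9 CPM. For both genes the groups overlapped, PBS replicate 3 being lower than AML replicate 1 for Fos and the lowest of all 5 for Jun. Junb, a Jun protein that limits myeloid progenitor expansion, stood at 141, 227 and 66.9 CPM against 52.6 and 76.5 CPM. Jund, the Jun protein found in resting cells, stood at 574, 506 and 259 CPM against 174 and 303 CPM. Here PBS replicate 3 lay between the AML libraries. Fosb varied least, at 50.3, 29.2 and 38.1 CPM against 32.6 and 32.96 CPM, with PBS replicate 2 the lowest library.

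Egr1, a zinc finger factor, stood at 17.3, 36.1 and 14.9 CPM in PBS and at 17.4 and 13.8 CPM in AML libraries, so that PBS replicate 2 stood alone. Nr4a1 (Nur77), an orphan nuclear receptor, stood at 30.6, 15.6 and 9.98 CPM against 7.37 and 8.03 CPM. Ier2, a nuclear protein of less settled function, stood at 773, 476 and 412 CPM against 190 and 346 CPM. For Nr4a1 and Ier2 each PBS library lay above each AML library. Zfp36 (tristetraprolin), which binds AU-rich elements and speeds the decay of cytokine and immediate early transcripts, stood at 79.0, 92.0 and 46.2 CPM against 28.4 and 38.2 CPM, again without overlap. Dusp1, a phosphatase that switches MAP kinases off, stood at 67.8, 55.4 and 32.1 CPM against 40.0 and 26.2 CPM, with overlap.

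Groups thus did not overlap for 3 of 10 members (Ier2, Zfp36 and Nr4a1, each lower in AML), whereas 32% of 14364 genes tested showed no overlap in either direction. AML replicate 2, left out of the authors' table, overlapped the PBS libraries for 2 of these when its barcodes were taken by an own filter: Nr4a1 stood there at 18.4 CPM (6 UMIs) against 30.5, 15.8 and 10.1 CPM in PBS, and Zfp36 at 55.2 CPM (18 UMIs) against 81.0, 95.4 and 48.9 CPM. None of the 10 was called by edgeR's quasi-likelihood test with Benjamini-Hochberg adjustment, against 0.16% of all genes (23 genes). At an unadjusted p under 0.05 there were 7 members and 1511 genes, and DESeq2 and limma-voom also called 0 members. The log2 fold change was −1.28 ± 0.406 (SE) for Nr4a1, −1.16 ± 0.398 for Junb and −1.10 ± 0.298 for Zfp36, whose adjusted p of 0.207 was the lowest of the set in edgeR. It was −1.06 ± 0.350 for Ier2, −0.99 ± 0.396 for Fos, −0.91 ± 0.360 for Jund and −0.81 ± 0.395 for Jun. It was smaller for Dusp1 (−0.72 ± 0.313), Egr1 (−0.59 ± 0.348) and Fosb (−0.28 ± 0.255). The members' median was −0.95, beside −0.031 over all genes tested. It was −0.69 without PBS replicate 1 and −1.19 without PBS replicate 3. In edgeR with no filter on low counts, 5 members (Fos, Junb, Ier2, Zfp36 and Nr4a1) passed, as did 1.82% of 21591 genes. This median change stood beside PBS libraries that themselves differed by a median factor of 2.32.

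**Figure D2:**
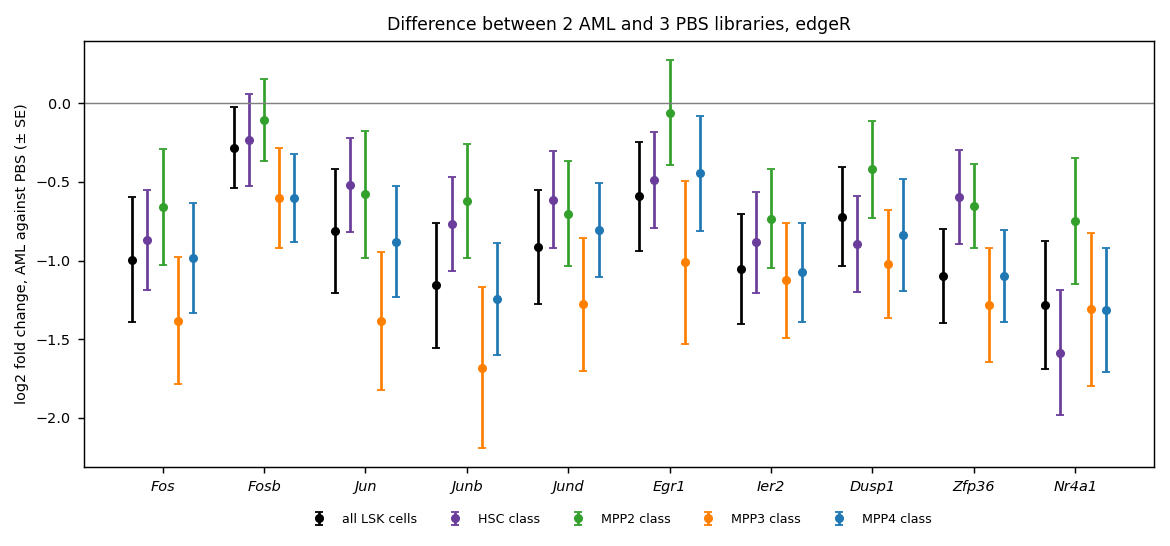
Log2 fold change of AML against PBS (negative: lower in AML) for each immediate early gene over all LSK cells and within each class, with its standard error from edgeR. Medians over the 10 genes are −0.95 over all cells and −0.69, −0.64, −1.28 and −0.93 in the HSC, MPP2, MPP3 and MPP4 classes, and Nr4a1 in the HSC class is the 1 value with an adjusted p under 0.05.

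Several other measures stood beside these differences, and their part in them was not tested. AML replicate 1 held few G1 cells, and among G1 cells alone the members' median was −0.87. Cells thinned to 2000 UMIs gave −1.03. The 4 MPP-3 markers summed to 706 and 545 CPM in the AML libraries and to 174 to 301 CPM in PBS. The 6 monocyte and macrophage markers summed to 32.4 CPM in AML replicate 1, where C1qa was at 0, and to 44.6 CPM in AML replicate 3, against 12.8 to 16.9 CPM in PBS. The 12 heat shock genes summed to 6975, 4710 and 4694 CPM in PBS and to 6516 and 6074 CPM in AML. The AML libraries thus lay within the PBS range. Hspa1a was at 0 in PBS replicate 3 and Hspb1 at 0 in AML replicate 1. The list also holds genes that rose in S cells, such as Hspe1 and Hspd1, so the sum is no measure of handling alone. PBS replicates 2 and 3 had like sums, whereas most members were higher in PBS replicate 2, and the part of handling was not tested. In these sums a smaller number of cells with a transcript and fewer transcripts per cell cannot be told apart.

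Within the authors' classes, which rest on module scores of gene signatures and hold the same cells as above, each member had a negative fold change in each class. In the HSC class 1 of 10 members was called, against 0.178% of 10668 genes, and the groups did not overlap for 2 members against 27.4% of genes. That member was Nr4a1, at 40.6, 15.9 and 11.8 CPM in the PBS libraries, at 8.29 CPM in AML replicate 3 and with 0 UMIs in the 23 HSCs of AML replicate 1. Its log2 fold change was −1.59 ± 0.398 (edgeR, adjusted p = 0.0424). The fold change ranged from −9.09 without AML replicate 3, which left the library at 0 as the AML group, to −0.77 without PBS replicate 1. The call was lost without AML replicate 3 (adjusted p = 0.704), without AML replicate 1 (adjusted p = 0.990), without PBS replicate 1 (1.00), with DESeq2 (1.00) and among G1 cells (0.416). The fitted value rests partly on a library at 0 and is no bound on the fold.

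In the MPP2 class 0 of 10 members were called, against 0.0399% of 12518 genes, and the groups did not overlap for 2 members (Ier2 and Zfp36) against 29% of genes. In the MPP3 class 0 were called, against 0.0486% of 10294 genes, and the groups did not overlap for 6 members (24.7% of genes). In the MPP4 class 0 were called, against 0.0325% of 12305 genes, and the groups did not overlap for 4 members (Fosb, Ier2, Zfp36 and Nr4a1; 27.8% of genes). DESeq2 also called 0 members in each of these 3 classes and gave no adjusted p for 2 members in MPP3. The number of members at an unadjusted p under 0.05 was 7 in HSC, 2 in MPP2, 8 in MPP3 and 9 in MPP4, beside 4.16%, 7.56%, 7.39% and 5.93% of all genes tested. The median fold change was lowest in MPP3, where Junb stood at 156, 429 and 81.4 CPM in PBS and at 44.6 and 84.9 CPM in AML libraries (log2 fold change −1.68 ± 0.511), with PBS replicate 3 below AML replicate 3. Without PBS replicate 3, Fos, Jun and Junb were called in MPP3 (adjusted p 0.0448, 0.0451 and 0.0448 in edgeR), as were 0.243% of 9862 genes. Cell make-up within MPP3 differed too: cluster 4 of the authors' clustering, low in most members as described below, held 33.3% and 25.9% of the MPP3 cells of AML replicates 3 and 1 and 13.9%, 24.4% and 21.3% of those of PBS replicates 1 to 3. Cluster 6, the cluster with immunoglobulin transcripts, held 6.69% and 3.51% against 6.66%, 29.3% and 9.48%. The part of cluster 4 in the AML values was not tested.

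Class-by-group terms then tested the AML effect in each class against that in HSC. No member passed the F test in edgeR, against 0.872% of 12734 genes, and 4 members had an unadjusted p under 0.05, beside 10.9% of genes. Jun was nearest (adjusted p = 0.109), with a further log2 change of −0.74 ± 0.180 in MPP3 relative to HSC, a term that alone had an adjusted p of 0.0251 (136 genes were higher and 90 lower by that term). DESeq2 called 1 member, Jun (adjusted p = 0.0326), and gave no adjusted p for 5. It called 178 genes, 12.9% of the 1378 to which it gave an adjusted p.

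Across classes, levels were highest in HSC for most members. Egr1 and Ier2 were highest in the HSC class in 5 of 5 libraries, and Fos, Fosb, Jun, Junb, Jund and Dusp1 in 4 of 5. Zfp36 was highest there in 2, and Nr4a1 in 0. Ratios to the HSC class within each library are plotted for the 3 MPP classes.

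**Figure D3:**
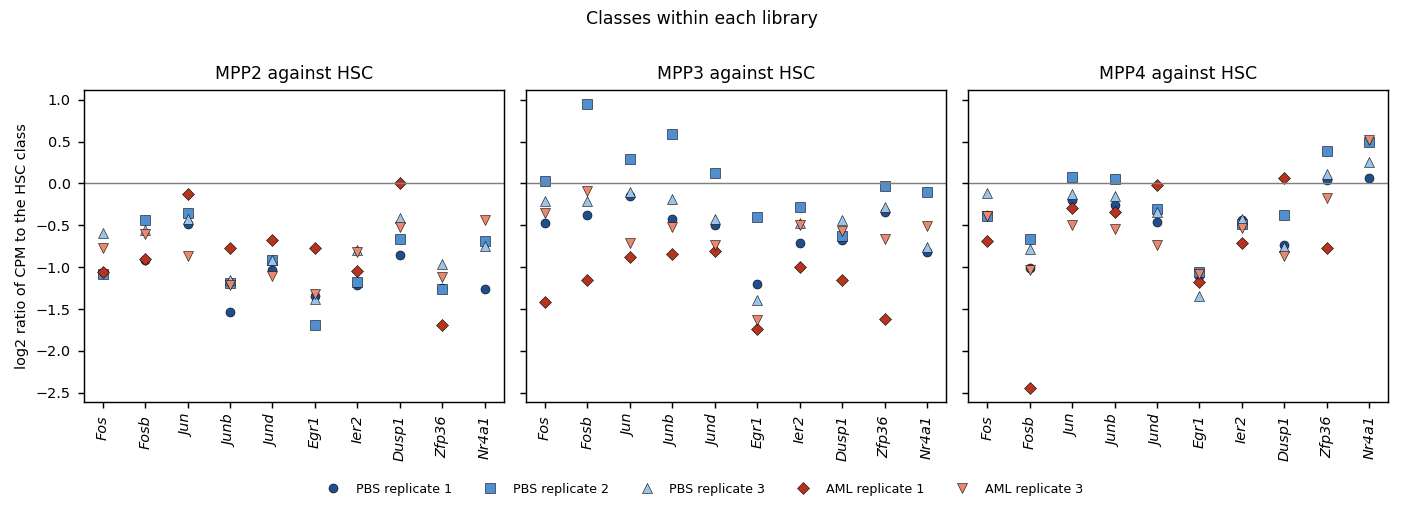
Log2 ratio of the level in MPP2, MPP3 or MPP4 to that in the HSC class of the same library, 1 symbol per library; no point is drawn for Nr4a1 in AML replicate 1, whose HSC class had 0 UMIs. Egr1 and Ier2 lie below 0 in each library and panel, and Nr4a1 lies above 0 in MPP4. In MPP3, PBS replicate 2 lies above 0 for Fos, Fosb, Jun, Junb and Jund on the TMM scale plotted. On the plain scale this holds for Fosb alone.

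Egr1 had the largest fall of the 10 members in each of the 3 MPP classes. It stood at 33.4, 71.7 and 30.5 CPM in the HSC class of the PBS libraries and at 34.3 and 30.3 CPM in those of the AML libraries. In MPP4 it stood at 15.5, 34.3, 12.0, 15.1 and 14.3 CPM in the same order, below the HSC class in 5 of 5 libraries. In MPP2 it stood at 13.1, 22.2, 11.8, 20.1 and 12.1 CPM, and in MPP3 at 14.5, 54.3, 11.6, 10.3 and 9.77 CPM. MPP2, MPP3 and MPP4 overlapped each other in Egr1, and PBS replicate 2 was the highest library in each class. The log2 fold change against HSC was −1.39 ± 0.116 in MPP2, −1.34 ± 0.146 in MPP3 and −1.13 ± 0.113 in MPP4. These 3 comparisons share the HSC sums.

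The class signatures are not listed in the sources used here, so a member may be part of one, and a class difference would then be partly set by the labels. With the library as a block, all 10 members differed between classes by the F test of edgeR, as did 67.7% of 11705 genes. In MPP2 all 10 fell relative to HSC (56.2% of genes were called in either direction), with a median of −0.96. Junb had −1.25 ± 0.118, Zfp36 −1.14 ± 0.097, Ier2 −0.98 ± 0.085 and Jund −0.97 ± 0.097, and the smallest fall was that of Jun, −0.49 ± 0.102. Without PBS replicate 1, Nr4a1 had −0.60 in place of −0.95. Junb went from 210, 285 and 92.4 CPM in the HSC class of the PBS libraries to 72.2, 125 and 41.6 CPM in MPP2, and from 80.0 and 122 CPM to 46.9 and 52.7 CPM in the AML libraries. Zfp36 went from 102, 106 and 57.7 CPM to 42.9, 44.1 and 29.6 CPM in PBS and from 68.5 and 55.9 CPM to 21.2 and 25.7 CPM in AML. Each library moved the same way for these genes.

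In MPP3, 7 of 10 members fell (49.6% of genes were called) with a median of −0.42, and Fosb, Jun and Junb had −0.16 ± 0.118, −0.25 ± 0.108 and −0.22 ± 0.122 without passing. PBS replicate 2, with 41 MPP3 cells, went against the other libraries for these genes on the TMM scale: Fosb stood there at 38.3 CPM in HSC and 74.0 CPM in MPP3, Jun at 296 and 363 CPM and Junb at 285 and 429 CPM. Fos (342 and 350 CPM) and Jund (700 and 765 CPM) also stood higher in MPP3 there, although both fell in the fit. On the plain scale Fosb alone was higher (39.9 and 51.1 CPM), while Jun stood at 308 and 250.2 CPM and Junb at 297 and 296 CPM. With plain library sizes all 10 members were lower in MPP3 (60.4% of genes were called), with a median of −0.80 beside −0.36 over all genes. Without PBS replicate 1, Fos (−0.29, adjusted p = 0.0627) and Nr4a1 (−0.50, adjusted p = 0.113) no longer passed. In MPP4, 6 members fell (31.2% of genes were called) with a median of −0.38 (Fos, at −0.33, had −0.28 and an adjusted p of 0.0806 without PBS replicate 1), and Fosb had the second largest fall after Egr1, −0.94 ± 0.110, from 82.2, 38.3, 53.6, 68.5 and 47.6 CPM to 40.8, 24.2, 31.2, 12.6 and 23.2 CPM. Jun (−0.19 ± 0.101), Junb (−0.23 ± 0.113), Zfp36 (0.09 ± 0.091) and Nr4a1 (0.19 ± 0.124) did not pass. Nr4a1 stood in MPP4 at 42.3, 22.4, 14.1, 2.52 and 11.9 CPM, above the HSC class in 5 of 5 libraries, although AML replicate 1 had 0 UMIs in HSC.

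Cell cycle phase moved with class. G1 cells made up 84.1% to 87.9% of the HSC class outside AML replicate 1 (56.5%), 6.06% to 12.9% of MPP2 in all 5 libraries, 40.9% to 58.5% of MPP3 and 66.3% to 75.9% of MPP4 outside AML replicate 1 (13.6% and 28.2%). Among G1 cells, compared in sums of at least 20 cells (which left out HSC of AML replicate 1 and MPP2 of PBS replicate 2), 4 members were lower in MPP2 than in HSC (Fos, Junb, Egr1 and Nr4a1; 9.92% of 10279 genes were called in either direction), with a median of −0.28. In MPP3, Egr1 and Dusp1 were lower while Jun (0.31, adjusted p = 0.0243) and Junb (0.36, adjusted p = 0.0131) were higher, with a median of 0.11 and 25.7% of genes called. The higher Jun and Junb rested on PBS replicate 2 and on the scaling: without that library they had 0.15 (adjusted p = 0.252) and 0.16 (adjusted p = 0.228), with 4 members lower, 0 higher and 24.8% of genes called. With plain library sizes they had −0.20 and −0.16 and did not pass, with 7 members lower, 55.4% of genes called and a median of −0.40 beside −0.45 over all genes. In MPP4, 5 were lower and Zfp36 was higher (0.23, adjusted p = 0.0385), with 24.8% of genes called. That call of Zfp36 was lost without PBS replicate 2 (0.15, adjusted p = 0.224) and with plain library sizes (0.17, adjusted p = 0.297). Egr1 stayed lower in G1 cells of each class, with −0.83 in MPP2, −0.76 in MPP3 and −1.10 in MPP4.

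Levels also differed by phase, and in 1 direction. These sums pool the classes, whose shares of G1 cells differed as given above. All 10 were highest in G1: for 9 members this held in 5 of 5 libraries, and for Nr4a1 in 4 of 5. Junb stood at 216, 335 and 97.9 CPM in G1 cells of the PBS libraries and at 86.5 and 117 CPM in those of the AML libraries. In G2M cells it stood at 65.3, 117, 32.5, 37.9 and 45.9 CPM in the same order. Each library thus had less in G2M, although PBS replicate 2 had as much Junb in G2M cells as AML replicate 3 had in G1 cells. Fos stood at 592, 329, 169, 263 and 156 CPM in G1, at 320, 172, 105, 125 and 87.1 CPM in S and at 260, 138, 94.5, 133 and 98.8 CPM in G2M. Nr4a1 stood at 41.7, 20.1, 11.2, 6.65 and 9.85 CPM in G1 and at 15.8, 9.03, 7.84, 5.98 and 6.83 CPM in G2M, and AML replicate 1 was its exception, with 9.38 CPM in S.

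**Figure D4:**
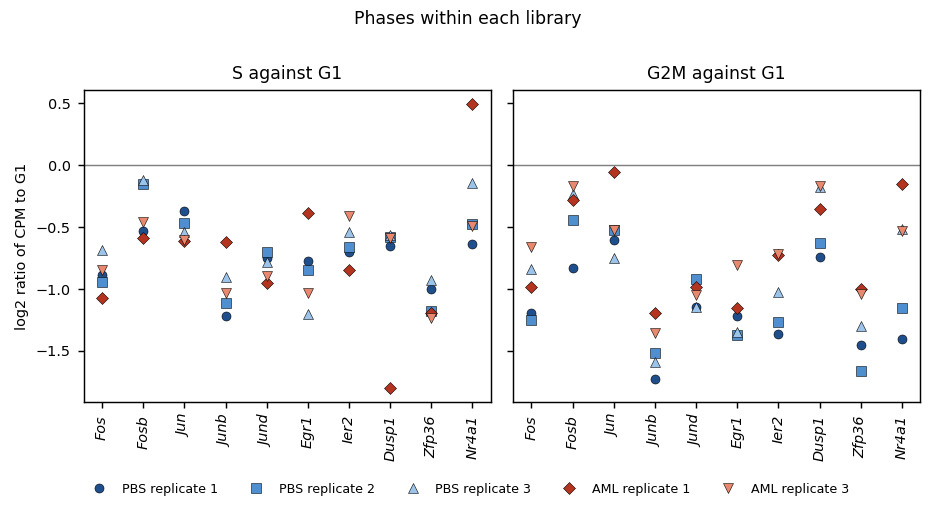
Log2 ratio of the level in S or G2M cells to that in G1 cells of the same library for each immediate early gene, 1 symbol per library. All values lie below 0 except Nr4a1 in S cells of AML replicate 1, and the fitted values are lowest for Junb (−1.54) and Zfp36 (−1.34) in G2M.

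In the fit with the library as a block, all 10 members differed by phase, as did 72.9% of 12236 genes. That fit had no term for class, so a difference between phases can be partly one between classes. All 10 fell in S (61.1% of genes were called in either direction), with a median of −0.71, and all 10 fell in G2M (57.6% of genes), with a median of −1.05. In S the largest falls were those of Zfp36 (−1.08 ± 0.076) and Junb (−1.07 ± 0.059), followed by Egr1 (−0.92 ± 0.098) and Fos (−0.86 ± 0.066). In G2M, Junb had −1.54 ± 0.061, Zfp36 −1.34 ± 0.079, Egr1 −1.16 ± 0.103, Ier2 −1.06 ± 0.070, Jund −1.06 ± 0.047 and Nr4a1 −1.04 ± 0.123. Fosb fell least, by 0.43 on the log2 scale in G2M. Without PBS replicate 1 the values in G2M were smaller for Nr4a1 (−0.67), Fosb (−0.23, adjusted p = 0.0483) and Dusp1 (−0.28 in place of −0.45), all still called. The phase is the authors' call from S and G2M scores, and the sources used here do not name the genes behind those scores. With cells thinned to 2000 UMIs Fosb in S no longer passed (−0.22, adjusted p = 0.157) while the other calls held.

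The authors' 9 clusters are described without a test, since the cells were grouped by their expression; the sources used here do not name the genes used. Cluster 0 (6367 cells) had more Fosb, Jun, Jund and Egr1 than clusters 1 to 4 in 5 of 5 libraries. Cluster 3 (1445 cells, 2.35% in G1) and cluster 4 (826 cells, 21.9% in G1) lay below cluster 0 in 5 of 5 libraries for Fosb, Jun, Jund, Egr1, Ier2 and Zfp36. Egr1 stood at 23.6, 50.9, 20.5, 27.3 and 21.6 CPM in cluster 0 and at 9.21, 16.6, 10.4, 11.0 and 11.6 CPM in cluster 3. Cluster 7 (102 cells), measured in 3 libraries, was the lowest cluster in all 3 for Junb, Ier2 and Zfp36.

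Cluster 6 (177 cells, 172 of them called MPP3) was unlike the rest. It held 33751 to 57565 CPM of the 6 B and plasma cell markers, where no other cluster passed 946 CPM, and immunoglobulin genes took 51.0% to 71.2% of its UMIs. Because these transcripts fill the total, the 2 scalings differ: TMM raised the cluster's values by 2.41 to 3.14 times over plain CPM in the 3 libraries with at least 20 cells. On the plain scale Fos stood at 468, 170 and 256 CPM in cluster 6 of PBS replicate 1, PBS replicate 3 and AML replicate 3, against 569, 138 and 159 CPM in cluster 0, and on the TMM scale at 1329, 532 and 616 CPM against 450, 120 and 124 CPM. Fosb and Junb were above cluster 0 in 3 of 3 libraries on both scales, with plain ratios of 1.31 to 2.44 for Fosb and of 1.05 to 1.54 for Junb. High Junb was not particular to cluster 6. In cluster 8 (113 cells) of the same libraries it stood at 280, 110 and 188 CPM on the plain scale, against 273, 81.6 and 164 CPM in cluster 6. Ier2 and Egr1 were below cluster 0 in 3 of 3 on the plain scale (0.32 to 0.40 and 0.47 to 0.97) and above it on the TMM scale, so their direction flips with the scaling. Dusp1 and Nr4a1 were below cluster 0 on both. On the plain scale the heat shock sum was 522 to 1981 CPM in cluster 6 and 3718 to 9074 CPM in the other clusters. Immunoglobulin transcripts fill much of the cluster 6 total on that scale.

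This cluster made up part of the MPP3 sums. It gave 40.1% of the MPP3 UMIs of PBS replicate 2 (12 of 41 cells) and 5.73% to 16.8% of those of the other libraries, and 91.5% of its cells were in G1. The fits that follow left out clusters 5 to 8 together, and the part of cluster 6 alone was not tested. Without clusters 5 to 8 all 10 members were lower in MPP3 than in HSC, with a median of −0.61 in place of −0.42 (50.6% of 11552 genes were called). Among G1 cells without those clusters, 7 were lower and 0 higher (24.1% of 9844 genes were called), and Junb, which had been higher among all G1 cells, was lower (−0.29, adjusted p = 0.0289), as was Fosb (−0.61, adjusted p = 0.000429). Leaving out these clusters also took the G1 MPP3 sum of PBS replicate 2 below 20 cells and out of the fit, so that this change is not one of the clusters alone. For AML against PBS in MPP3 without those clusters, the members' median was −1.11 and 0 were called.

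**Figure D5:**
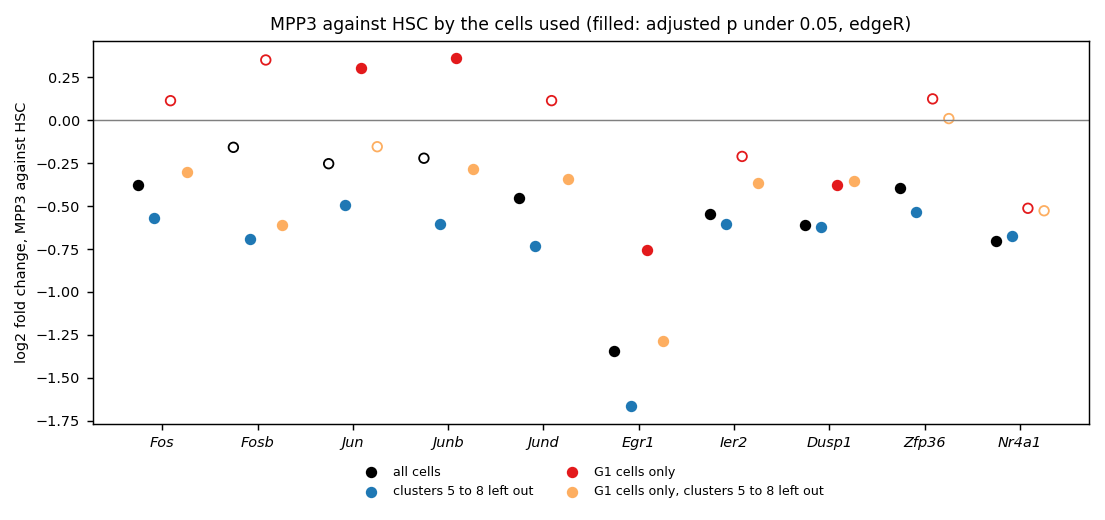
Log2 fold change of MPP3 against HSC for each immediate early gene in edgeR, with the library as a block, under 4 choices of cells; filled circles have an adjusted p under 0.05 and open circles do not. Jun and Junb are above 0 and filled among all G1 cells (0.31 and 0.36) and below 0 once clusters 5 to 8 are left out (with the G1 sum of PBS replicate 2), their calls among G1 cells being lost without PBS replicate 2 and their sign turned with plain library sizes, and Egr1 is below 0 under each choice.

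Shares of cells with a UMI are given for Fos, Ier2 and Nr4a1 as examples. PBS replicates 1 and 2 were the highest libraries for these and for each other member except Fosb. Fosb differed, with 9.56%, 5.14% and 6.62% of thinned cells in PBS replicates 1 to 3 and 5.05% and 6.67% in AML replicates 1 and 3. In cells thinned to 2000 UMIs, Fos had a UMI in 48.7%, 31.6% and 21.0% of cells in PBS replicates 1 to 3 and in 20.2% and 22.2% in AML replicates 1 and 3. Without thinning these shares were 65.6%, 66.9%, 37.8%, 27.6% and 44.0%, with PBS replicate 2, the deepest per cell, the highest. Thinned shares for Ier2 were 68.8%, 54.7%, 50.9%, 26.6% and 48.8%, and for Nr4a1 7.17%, 3.21%, 1.99%, 1.44% and 1.74%. The unthinned shares were 86.3%, 92.6%, 74.2%, 32.5% and 79.6% for Ier2, and 13.1%, 13.9%, 4.55%, 2.02% and 5.203% for Nr4a1. AML replicate 1 was lowest for Fos, Ier2 and Nr4a1. In thinned cells it was not lowest for Jun (17.6%, against 13.5% in PBS replicate 3) or Dusp1 (6.49%, against 5.96% in AML replicate 3). No cell type in these libraries is known to lack these genes, so background from free RNA was not measured, and the shares are not read as shares of expressing cells.

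Counted together, a thinned cell had a UMI for 2.92, 2.63 and 1.64 of the 10 genes on average in the PBS libraries and for 1.15 and 1.80 in the AML libraries. Cells with a UMI for at least 5 members made up 17.4%, 13.4% and 2.43% of PBS cells and 1.01% and 3.11% of AML cells, so that PBS replicate 3 fell between the AML libraries. Within PBS replicate 1 this share was 27.3% in HSC, 20.3% in MPP4, 13.8% in MPP3 and 6.94% in MPP2. It was 21.1%, 14.3%, 19.5% and 4.55% in PBS replicate 2 and 4.62%, 2.09%, 3.13% and 1.15% in PBS replicate 3, in the same order of classes. In AML replicate 3 it was 7.01%, 3.24%, 2.27% and 1.61%, and in AML replicate 1 4.35% (of 23 cells), 1.71%, 0.0% (0 of 228 cells, which allows up to 1.32%) and 1.23%. HSC was thus highest in 5 of 5 libraries, MPP2 was lowest in all but AML replicate 1, and the order of MPP4 and MPP3 differed between libraries. The place of HSC rests on few cells in AML replicate 1 (23 HSCs) and, against 41 MPP3 cells, in PBS replicate 2. Correlations between pairs of members over cells were weak: the highest of their medians over libraries was 0.178, for Fos with Jund.

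Lists of related genes were set beside the members. Of 34 other immediate early and AP-1 genes none was called for AML against PBS over all LSK cells, with a median log2 fold change of −0.32 and positive values for 9. For the class and phase counts that follow, the shares of all genes called were those given above for the same comparisons (31.2% to 61.1%), and nothing is read as particular to a list. In MPP2 relative to HSC, 19 of 29 tested fell and 1 rose, led by Ppp1r15a (−1.49 ± 0.092), which restores translation after stress, Rhob (−1.001 ± 0.101), a small GTPase, and Dusp2 (−0.87 ± 0.088), a MAP kinase phosphatase. In MPP3, 10 fell and 4 rose, led by Ppp1r15a (−1.25 ± 0.105), and in MPP4, 6 fell and 7 rose, with Ppp1r15a at −1.25 ± 0.091 and Dusp2 at 0.38 ± 0.082. In S, 25 of 29 fell and 2 rose, led by the zinc finger factor Klf6 (−1.22 ± 0.079), and in G2M, 24 fell and 0 rose, led by Rhob (−1.16 ± 0.092). The medians were −0.79 in S and −0.75 in G2M, beside −0.042 and −0.046 over all genes.

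Of 21 kinases and factors upstream of the members, such as Srf and Creb1, none was called for AML against PBS (median 0.11). In MPP2, 10 fell and 1 rose, Map2k2 (0.53 ± 0.086), a MAP kinase kinase. In MPP3, 8 fell and 1 rose, in MPP4, 4 fell and 0 rose, in S, 9 fell and 4 rose, and in G2M, 7 fell and 3 rose. Called genes were thus 52.4%, 42.9% and 19.0% of this list in MPP2, MPP3 and MPP4, 61.9% in S and 47.6% in G2M. Of 12 heat shock genes, 9 were tested and none was called for AML against PBS (median 0.35). Relative to HSC or G1, 6 rose in MPP2, 7 in MPP3, 6 in MPP4, 8 in S and 6 in G2M, and 0 fell in any of these. The mitochondrial chaperones Hspe1 (1.13 ± 0.049) and Hspd1 (1.12 ± 0.050) led in S.

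Over the 20 sums of library and class, Pearson's r of a member with the mean of the other 9 ran from 0.44 for Fosb and 0.46 for Nr4a1 to 0.93 for Jund. Among 3945 other genes, those most like the mean of the members were Mat2b (r = 0.886), Zfand6 (0.872), Mcl1 (0.859), Selenop (0.856) and Cytip (0.846). The 20 sums share libraries, depth and class composition, so these values are descriptions.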

How the data were processed

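Single cells from 6 bone marrow LSK libraries were profiled on 10x Genomics Chromium (GEM V3). Values in the deposited matrices are raw UMI counts per gene and barcode, made by the authors with Cell Ranger 7.0.1 and the GRCm38 (mm10) build; their notes also name Seurat 4.3.0 and R 4.2.2. Class, cluster and phase, with the percent of mitochondrial UMIs per cell, came from the authors' deposited cell table. Its UMI counts per cell equalled the matrix sums for 16822 of 16822 cells. The cell filter, the handling of doublets and the genes behind the class scores were stated in no source used here, and 18 columns of the table were not used. AML replicate 2 has no cell in it and entered tests only under an own filter on barcodes (at least 1000 genes and at most 10% mitochondrial UMIs).

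Counts were summed per library, alone or by class or phase, in sums of at least 20 cells, and tested with edgeR 4.0.16 under R 4.3.3 (TMM, filterByExpr, quasi-likelihood F test, Benjamini-Hochberg over all genes, threshold 0.05), with DESeq2 1.42.0 and limma 3.58.1 as alternatives. Group contrasts had no replicate block; class, phase and interaction fits had the library as a block. In the HSC class the fit used 1 common spread for all genes. SE is the absolute log2 fold change over the square root of F. On simulated counts with genes changed by 2 on the log2 scale, the fit of AML against PBS over all LSK cells recovered 95.4% of 194 changed genes (4.64% of calls were false) and the class fit, in MPP4 against HSC, 100% of 196 (2.97% false). The simulation gave all genes 1 common spread. The members changed by less between AML and PBS and spread more between PBS libraries than most genes. These shares therefore do not say how often a change in the members would be called. Shares used cells thinned to 2000 UMIs, leaving out shallower cells. Gene positions are those of the GRCm38 annotation and promoters those of RefSeq on GRCm38.p6. All 10 members were described in each comparison; of the other lists, genes were named by the 3 largest changes among those called with a mean log2 CPM of at least 5, or a part of these. Members and lists were chosen with earlier results of these data known. Low UMI counts limit precision for Nr4a1 and Egr1 and in AML replicate 1.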

Additional observations from a re-analysis of the deposited data

How the results depend on the processing

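Of 1320 log2 fold changes of members recomputed under the alternatives, 1207 kept their direction and their side of the threshold, 50 lost a call, 35 gained one and 28 changed sign; the causes were not tested unless the alternative itself removes samples, cells or genes. Over all LSK cells the members stayed negative under all 14 alternatives, though the value nearest to 0 was −0.024 for Fosb, −0.076 for Egr1, −0.28 for Jun and −0.43 for Fos, and the count called was 5 with no filter on low counts and 0 under the others, while genes called ranged from 2 to 419 around 23. The labels give both groups replicate numbers, but the deviations of the 2 same-numbered pairs did not go together (correlations −0.089 and −0.103), so the numbers were not taken as pairs; with the replicate block 0 members were called over all LSK cells and in each class. In the HSC class the count of 1 (Nr4a1) became 0 with DESeq2, plain library sizes, thinned cells, the replicate block, G1 cells or without clusters 5 to 8, and ranged from 0 to 1 when 1 library was left out. It became 4 in MPP3 and 4 in MPP4 with no filter on low counts, and ranged from 0 to 3 in MPP3 when 1 PBS library was left out. The 3 were called without PBS replicate 3, a fit that called 0.243% of 9862 genes. The F test of class-by-group terms called 1 member with DESeq2 (Jun) and 2 with no filter (Jun and Junb). For these class and class-by-group fits with no filter the share of all genes called is not given, so their counts are not read as particular to the members. Genes called ranged from 0 to 29 in HSC, 0 to 156 in MPP2, 2 to 166 in MPP3 and 0 to 75 in MPP4, and from 29 to 506 for the interaction and 3555 to 8961 for class.

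Sign changes for AML against PBS were of values that passed no test, and for Egr1 in MPP2 some were larger in size than the value they replaced (−0.060). With the replicate block Jun (0.13) and Egr1 (0.00067) in HSC, Egr1 in MPP2 (0.31) and Egr1 in MPP4 (0.17) turned positive, as did Egr1 in MPP2 with plain library sizes (0.0020). With 1 library left out, Fosb in HSC ranged from −0.44 to 0.20, Egr1 in MPP2 from −0.29 to 0.44, Fosb in MPP2 from −0.24 to 0.089, Dusp1 in MPP2 from −0.73 to 0.0072 and Egr1 in MPP4 from −0.71 to 0.056. Fits without an AML library rest on 1 AML sample, assumed to vary like the others. Among G1 cells Jun turned positive in MPP2 against HSC (0.078), and Fos (0.11), Fosb (0.35), Jun (0.31), Junb (0.36), Jund (0.11) and Zfp36 (0.12) in MPP3 against HSC; without clusters 5 to 8 as well, Zfp36 alone did so (0.0095). Among G1 cells without PBS replicate 2, Jun was 0.0070 in MPP2, and in MPP3 Fos was 0.069, Fosb 0.26, Jun 0.15, Junb 0.16 and Zfp36 0.067, none of them called; with plain library sizes no member of G1 cells had another sign than over all phases. With phase as a further term Junb in MPP3 was 0.12. The alternatives that leave out clusters 5 to 8 or add phase, G1 cells within class, and G1 cells with plain library sizes or without PBS replicate 2, were chosen after seeing the data. By phase 10 of 10 members were called under all 11 alternatives of the F test. Genes called by phase ranged from 6102 to 9529 under these, around 8920 (72.9% of 12236).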

Other observations

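AML replicate 2, which has no cell in the authors' table, is described here by its own barcodes. Under the own filter it kept 106 barcodes with a median of 2618 UMIs, in which Fos stood at 141, Jun at 104, Junb at 98.1, Jund at 294, Ier2 at 205 Zfp36 at 55.2, Dusp1 at 46.0, Fosb at 27.6 (9 UMIs), Nr4a1 at 18.4 (6 UMIs) and Egr1 at 12.3 (4 UMIs) CPM (TMM scaled). Under the same filter PBS replicates 1 to 3 had 433, 242 and 138 CPM of Fos, 69.1, 57.7 and 34.2 CPM of Dusp1 and 814, 511 and 443 CPM of Ier2. Fos and Dusp1 of AML replicate 2 thus lay within the PBS range, as did Nr4a1, and Ier2 lay below it. Fosb and Egr1 also lay below it, the lowest PBS values being 29.5 CPM (PBS replicate 2) and 15.6 CPM (PBS replicate 3). Of the 10 members 7 lay within the PBS range, 3 below it and 0 above it.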
